A study of Mus musculus with 12 samples.

Results

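The collagens and fibroblast matrix genes comprised 65 of the 24197 genes in a table of gene counts from mouse brown adipose tissue, the fat depot that produces heat. They were chosen by name: 44 genes whose symbol had the form of a collagen chain, and 21 named matrix, matrix enzyme and fibroblast surface genes from Dpt to Mmp14. Of these, 58 passed the filter on low counts and were tested among 15265 genes, and 7 collagens did not (Col2a1, Col6a4, Col9a1, Col9a2, Col19a1, Col22a1 and Col25a1). The 12 libraries formed 4 groups of 3: Adipoq-Cre+; Ebf2 fl/fl animals (mutant) and Adipoq-Cre-; Ebf2 fl/fl animals (control), each kept for 1 week at 4 °C (cold) or at room temperature (RT), at 8 to 10 weeks of age. All 4 groups carried the floxed Ebf2 alleles, and Adipoq-Cre drives recombination in adipocytes, so fibroblasts and other cells of the tissue keep the gene. The labels do not state whether each library is its own animal; the p-values then reflect only how far these libraries vary, which may be technical.

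Collagen chains are secreted as trimers. Types I, III and V build the fibrils of connective tissue, type IV forms the sheet-like network of the basement membrane that surrounds every adipocyte and vessel, and type VI forms beaded filaments between them. In fat, fibroblasts and adipocyte progenitors that carry Pdgfra, Ly6a and Pi16 make most of the fibrillar matrix, while adipocytes and endothelial cells also make basement membrane. Ebf2 encodes a transcription factor that marks brown adipocytes and their progenitors.

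Ebf2 was measured first, as the gene the labels name as deleted. In the cold it had 28.7, 21.6 and 27.0 CPM (counts scaled to a common library total) in the mutant libraries, against 52.3, 42.2 and 41.6 CPM in controls. The cold groups did not overlap, but the difference did not pass (log2 fold change -0.82 ± 0.25 SE, edgeR quasi-likelihood test, adjusted p = 0.153). At RT the libraries labelled mutant had 65.2, 45.7 and 38.3 CPM, against 47.4, 64.1 and 32.0 CPM in controls, so the gene did not separate the RT groups (log2 fold change 0.06 ± 0.25 SE). Within mutants Ebf2 was lower in the cold than at RT (-0.95 ± 0.25, adjusted p = 0.0226 by the same test). A count over the whole gene in bulk tissue includes exons and cells outside the deletion, and mutant below means labelled mutant. Summed CPM of 9 brown adipocyte genes was lower in the mutant RT libraries (5931, 3841 and 3667) than in the control RT libraries (6784, 11300 and 11280), without overlap. The 9 genes did not all go this way: 6 had a negative log2 fold change and 3 a positive one. Ucp1 had a mean of 1308 CPM in mutant RT and 4452 CPM in control RT libraries. Elovl3 was higher in mutants, at 62.8 CPM against 20.5 CPM.

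Promoter windows from RefSeq on GRCm38.p6, running from 250 bases before to 50 bases after a start, matched 48 of the 65 genes with 54 windows. The windows of 4 of these genes are given here in the direction of transcription. Of the 4, Dpt alone was called in the fit of all 12 libraries, and the window of Gsn, also called there, is not shown. Capitals mark the TATA box motif TATAAA, the CCAAT box and the GC box motif GGGCGG, each on either strand, and no motif lies within another. Dpt (chr1:164796413-164796712, plus strand) and Col3a1 (chr1:45311288-45311587, plus strand) are a matrix gene called higher in mutants at RT and the most abundant fibrillar chain. Col4a1 (chr8:11312777-11313076, minus strand) and Col4a2 (chr8:11312555-11312854, plus strand) encode the partners of the main basement membrane trimer and start head to head, so that their windows overlap by 78 bases.
Dpt: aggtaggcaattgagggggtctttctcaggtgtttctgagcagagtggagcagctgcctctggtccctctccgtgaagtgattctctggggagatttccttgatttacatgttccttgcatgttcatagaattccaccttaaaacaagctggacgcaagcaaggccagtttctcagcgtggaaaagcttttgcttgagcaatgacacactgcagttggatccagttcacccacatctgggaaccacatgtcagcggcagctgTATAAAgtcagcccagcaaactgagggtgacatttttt
Col3a1: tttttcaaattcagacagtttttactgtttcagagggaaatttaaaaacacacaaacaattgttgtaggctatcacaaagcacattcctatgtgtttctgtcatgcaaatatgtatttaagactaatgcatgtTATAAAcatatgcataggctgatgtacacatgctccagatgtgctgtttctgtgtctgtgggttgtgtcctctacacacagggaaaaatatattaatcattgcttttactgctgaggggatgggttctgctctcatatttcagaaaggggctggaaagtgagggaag
Col4a1: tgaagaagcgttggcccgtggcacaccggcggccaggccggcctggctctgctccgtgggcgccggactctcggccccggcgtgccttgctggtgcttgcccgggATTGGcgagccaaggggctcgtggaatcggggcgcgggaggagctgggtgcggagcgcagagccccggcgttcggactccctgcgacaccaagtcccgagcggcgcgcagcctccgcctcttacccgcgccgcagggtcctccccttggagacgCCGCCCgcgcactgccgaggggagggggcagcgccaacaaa
Col4a2: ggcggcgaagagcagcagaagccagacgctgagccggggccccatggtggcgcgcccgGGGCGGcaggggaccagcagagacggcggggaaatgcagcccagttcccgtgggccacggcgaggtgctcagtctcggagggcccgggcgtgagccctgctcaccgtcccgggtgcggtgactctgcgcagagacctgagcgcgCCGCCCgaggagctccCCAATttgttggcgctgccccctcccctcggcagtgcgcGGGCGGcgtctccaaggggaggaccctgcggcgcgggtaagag

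The windows of Dpt and Col3a1 each held a TATAAA, and those of Col4a1 and Col4a2 held none. TATAAA was present in 14.8% of the windows of these genes and in 13.6% of all 32851 windows, and CCAAT in 37.0% and 37.4%. GGGCGG was present in 57.4% of them and in 35.7% of all windows. A match or its absence says only which letters are in the window.

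The libraries held 25835650 to 37927038 counts, and 3 counts in a library corresponded to 0.0763 to 0.114 CPM, covering counting error only. Mutant cold library 3 stood apart from the other 11. Its summed CPM of 8 epithelial marker genes was 279, against 2.89 to 25.4 in the others. Its brown adipocyte list summed to 9696 CPM, against 18790 and 19880 CPM in the other mutant cold libraries. Results for mutant cold tissue are therefore given with and without it. The summed CPM of 15 skeletal muscle genes ran from 6.16 to 24050 across libraries without following the groups, but it went partly with the replicate number. In mutant RT, control RT, mutant cold and control cold libraries it was 20050, 17000, 6026 and 9587 CPM in replicate 3. In the same order it was 7.89, 7.74, 279.8 and 120 CPM in replicate 2, and 1114, 24050, 6.16 and 2271 CPM in replicate 1. The 8 lens genes summed to 0.649 to 2.26 CPM in the 3 mutant RT libraries, against 76.2 to 487 CPM in the other 9. Of 5 mesothelial genes 1 passed the filter, and the list summed to at most 7.42 CPM. Of 9 cartilage and tendon genes 2 were at 0 in every library, and the list summed to at most 12.8 CPM.

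Together the 65 genes took 0.606%, 0.5% and 1.02% of the counts of mutant cold libraries 1, 2 and 3, against 0.61%, 0.569% and 0.534% in control cold libraries. They took 1.06%, 1.02% and 1.05% in mutant RT libraries, against 0.897%, 0.683% and 0.721% in control RT libraries. The mutant RT libraries were thus above all 3 control RT libraries, and most of that difference lay outside the collagens: the 44 collagens alone took 0.349% to 0.391% in mutant RT libraries and 0.316% to 0.421% in control RT libraries. Most of the difference between the RT groups was in the single gene Gsn, at a mean of 3747 CPM in mutants and 1288 CPM in controls. The 65 genes together had means of 10590 and 7051 CPM, so their sum does not describe the set as a whole. In a bulk sample, fewer cells of a type and less RNA per cell cannot be told apart.

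Scaled to exon length, the most abundant of these genes was Gsn, which encodes the actin-severing protein gelsolin in a cellular and a secreted form, at a mean level of 601 CPM per kilobase over the 12 libraries. Sparc, a collagen-binding glycoprotein, followed at 504 CPM per kilobase. Next came the basement membrane chain Col4a1 at 126, the fibrillar chain Col3a1 at 99.1 and Col4a2 at 95.8 CPM per kilobase. Dpt (dermatopontin, a small matrix protein that binds decorin) stood at 70.7, Dcn (decorin, a proteoglycan on collagen fibrils) at 68.9 and Col1a1 at 30.7 CPM per kilobase. Gsn and Sparc together with Col4a1, Col4a2 and Col3a1 made up most of the counts of these genes, with 23.3%, 17.6%, 10.8%, 7.92% and 7.34% of them.

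**Figure D1:**
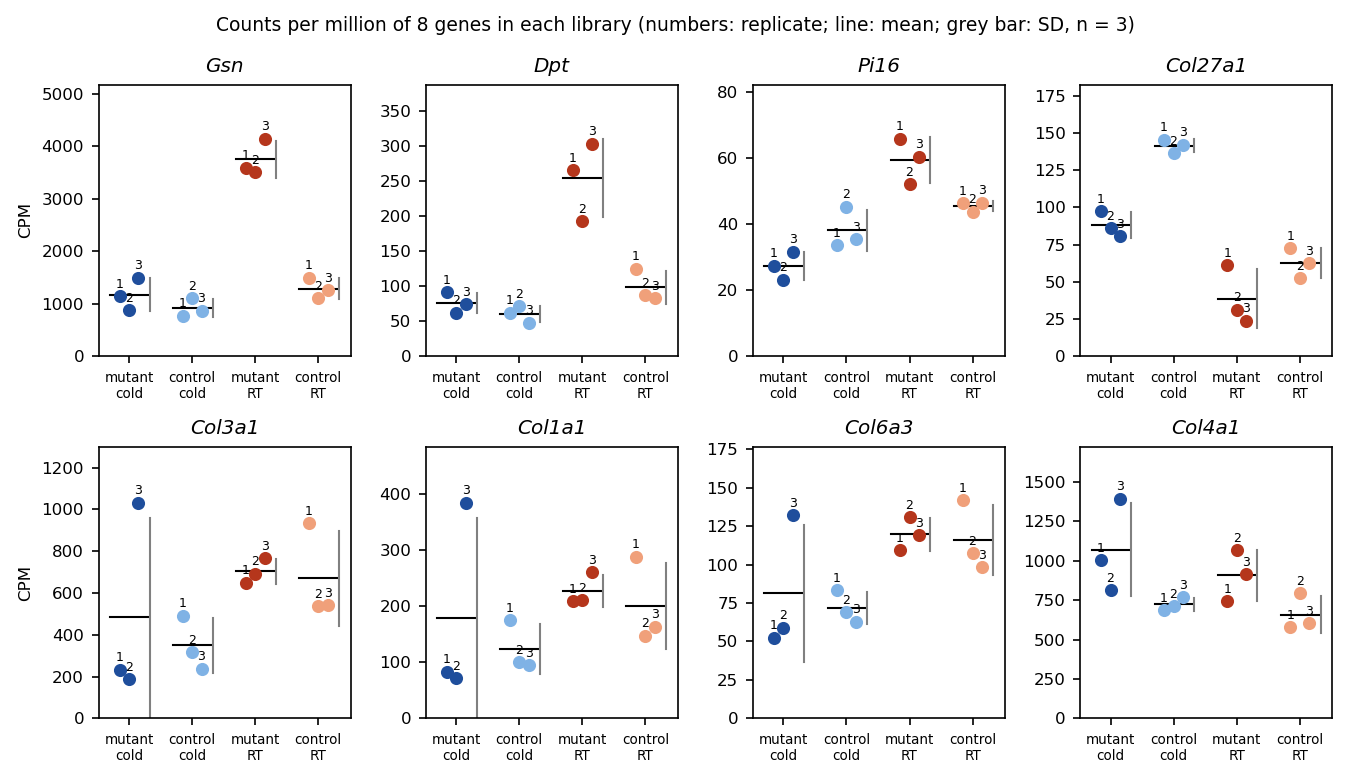
CPM (linear axis from 0) of 8 matrix genes in each of the 12 libraries, with groups along the horizontal axis, replicate numbers above the points, the group mean as a line and the SD as a grey bar (n = 3). Gsn and Dpt are highest in the mutant RT libraries, Col27a1 is higher in the cold in both genotypes, and Col3a1, Col1a1 and Col6a3 are high in mutant cold library 3 and low in mutant cold libraries 1 and 2.

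The comparisons share groups, each group entering a genotype and a temperature comparison, so they are not independent. The first comparison asked how mutant and control tissue differed at RT. Gsn and Dpt were higher and Col11a2 was lower in the mutant libraries. These were 3 of the 58 genes tested, 5.17%, while 6.24% of all genes tested were called in this comparison (3.92% higher, 2.32% lower), so the share called was near the background. The median log2 fold change of the 58 genes was 0.01, beside -0.04 over all genes tested.

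Gsn had 3593, 3504 and 4144 CPM in mutant RT libraries, against 1496, 1106 and 1261 CPM in control RT libraries. Every mutant library was above every control library, and the log2 fold change was 1.54 ± 0.22 (SE, edgeR quasi-likelihood test, adjusted p = 0.0023). Dpt had 265, 193 and 303 CPM in mutant RT libraries, against 125, 86.7 and 82.4 CPM in control RT libraries. It too was higher without overlap, by 1.37 ± 0.23 (adjusted p = 0.00488). Both calls held without each single library, and with the 3 muscle-rich libraries left out, which leaves a lone control RT library, the differences were 1.69 and 1.41 (adjusted p = 0.0594 and 0.0705). Summed CPM of 9 adipocyte marker genes was also higher in mutant RT libraries (26330, 20390 and 22250) than in control RT libraries (17890, 13110 and 15030), and its part in the Gsn and Dpt values was not tested.

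Col11a2, a chain of the type XI collagen that nucleates fibrils in cartilage, had 3.38, 7.03 and 2.35 CPM in mutant RT libraries, against 10.4, 9.73 and 15.3 CPM in control RT libraries. Its log2 fold change was -1.47 ± 0.38 (adjusted p = 0.039), and the call was lost without any of 9 single libraries (adjusted p 0.0503 to 0.172), all except mutant RT library 2 and mutant cold libraries 2 and 3. The minor basement membrane chains pointed the same way without passing. Col4a5 had 3.10, 3.31 and 2.88 CPM in mutant RT libraries, against 6.11, 8.50 and 5.57 CPM in control RT libraries (-1.12 ± 0.31, adjusted p = 0.0573). Col4a6 had 0.102, 0.0360 and 0.125 CPM in mutant RT libraries, against 0.439, 0.726 and 0.609 CPM in control RT libraries (adjusted p = 0.255). Col4a3 had 0.789, 1.33 and 1.44 CPM against 1.78, 2.25 and 3.02 CPM (adjusted p = 0.167), and Col4a4 had 1.12, 1.48 and 1.69 CPM against 1.62, 3.01 and 2.07 CPM (adjusted p = 0.321), in mutant and control RT libraries. The lens genes named above were near 0 in the mutant RT libraries as well, and their part in these values was not tested.

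The fibrillar chains did not separate the genotypes at RT. Col3a1, the type III chain, had 649, 692 and 767 CPM in mutant RT libraries, against 932, 535 and 540.0 CPM in control RT libraries. The groups overlapped, with a log2 fold change of 0.07 ± 0.57 and a 95% confidence interval from -1.19 to 1.33. Col1a1 had 209, 210.3 and 260.1 CPM against 288, 147 and 163 CPM, and its partner Col1a2 had 296, 279.6 and 365 CPM against 421, 228 and 258 CPM, in mutant and control RT libraries. Control RT library 1, the highest of its group for all 3 of these chains, also had the largest muscle sum, 24050 CPM, and the part of that in its collagen level was not tested. Col5a2, a type V chain that regulates fibril width, was higher without overlap at 69.8, 77.1 and 78.4 CPM in mutant RT libraries, against 62.4, 41.7 and 39.1 CPM in control RT libraries, but did not pass (0.65 ± 0.38, adjusted p = 0.378).

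Without mutant cold library 3, which lowers the spread shared by all groups but changes no RT value, 7 of 60 genes were called at RT, against a background of 9.75% (5.64% higher, 4.11% lower). Gsn, Dpt and Col18a1 were higher in that fit, and Col11a2, Col4a5, Col4a6 and Pdgfrb were lower. Col18a1, the source of the angiogenesis inhibitor endostatin, had 44.4, 55.5 and 58.0 CPM in mutant RT libraries, against 42.7, 26.5 and 20.5 CPM in control RT libraries (0.82 ± 0.23, adjusted p = 0.0442). Pdgfrb, the PDGF receptor of pericytes and fibroblasts, had 38.1, 40.8 and 35.4 CPM in mutant RT libraries, against 49.2, 62.8 and 50.5 CPM in control RT libraries (-0.51 ± 0.13, adjusted p = 0.0335).

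The second comparison set mutant against control tissue in the cold. None of the 58 genes was called by edgeR's quasi-likelihood test, where 1.12% of all genes tested were called (0.727% higher, 0.393% lower). DESeq2 also called 0. By edgeR, 6 of the 58 genes had an unadjusted p under 0.05, beside 2343 of all 15265 genes tested. The median log2 fold change was 0.30, with 35 genes positive and 23 negative, beside -0.01 over all genes tested. Without mutant cold library 3 the median was -0.44, with 11 genes positive and 49 negative of 60. Over all genes in that fit it was -0.02, with 7262 positive and 8241 negative. Still no member was called, and the smallest adjusted p was 0.0994. Of the 60 genes 14 had an unadjusted p under 0.05, beside 1965 of all 15506. The background was then 0.626% (0.432% higher, 0.193% lower). The direction of the whole group in this comparison was therefore set by 1 library.

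**Figure D2:**
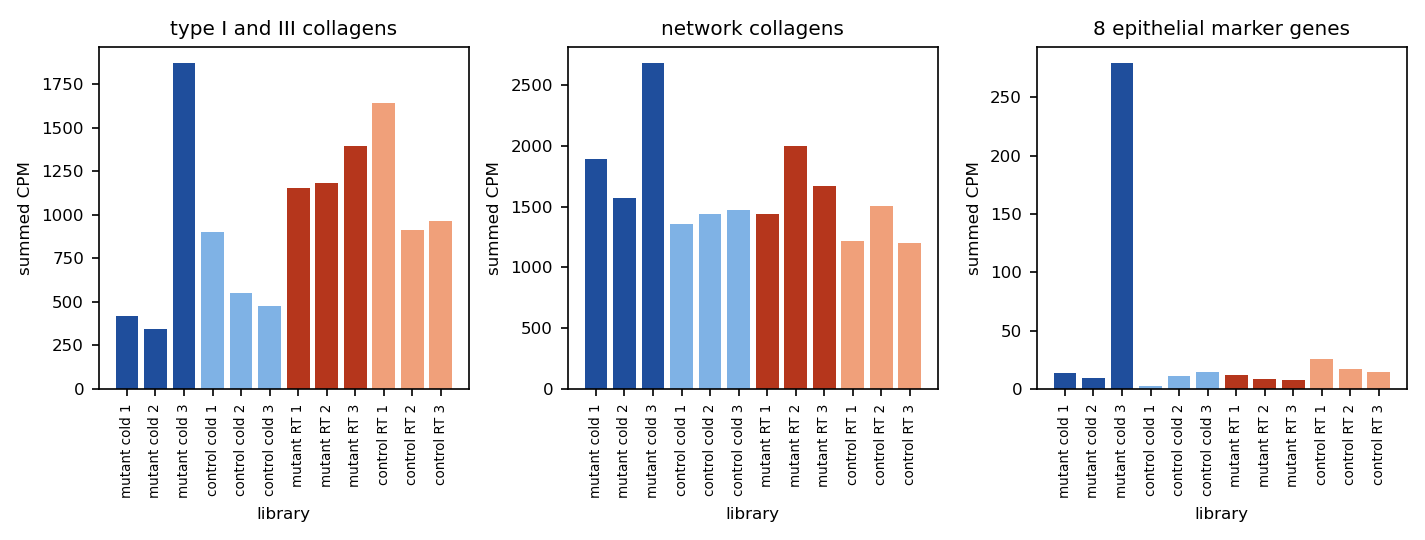
Summed CPM (linear axes from 0) of the type I and III chains Col1a1, Col1a2 and Col3a1, of 12 basement membrane and network collagens, and of 8 epithelial marker genes, with libraries along the horizontal axis. Mutant cold library 3 has 1869 CPM of type I and III chains and 279 CPM of epithelial genes, and mutant cold libraries 1 and 2 have the lowest type I and III sums of the 12, 421.5 and 344.1 CPM.

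The fibrillar chains show this. Col3a1 had 234, 186 and 1032 CPM in mutant cold libraries, against 492, 316 and 238 CPM in control cold libraries. Mutant cold libraries 1 and 2 were below all 3 controls, and library 3 was above every other library of the study. Col1a1 had 83.0, 71.1 and 384 CPM against 175, 99.8 and 94.7 CPM, and Col1a2 had 105, 86.9 and 454 CPM against 232, 135 and 145 CPM, in mutant and control cold libraries. Without library 3, all 10 fibrillar and all 7 beaded filament collagens tested were negative in mutants against controls. Col1a2 then differed by -0.83 ± 0.29 (adjusted p = 0.265) and Col3a1 by -0.73 ± 0.31 (adjusted p = 0.365), neither past the threshold.

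Among the matrix enzymes, Mmp2, a gelatinase that cuts type IV collagen and denatured fibrils, had 15.8, 13.3 and 54.0 CPM in mutant cold libraries, against 38.5, 22.3 and 24.7 CPM in control cold libraries, and gave the smallest adjusted p without library 3 (-0.97 ± 0.23, adjusted p = 0.0994). Mmp14, a membrane-bound collagenase that activates Mmp2, had 25.0, 13.4 and 112 CPM in mutant cold libraries, against 26.9, 22.5 and 18.4 CPM in controls. Its difference was 1.15 on the log2 scale with library 3 and -0.24 without it. Col17a1, a transmembrane collagen of epithelial anchoring junctions, had 0, 0.217 and 5.71 CPM in mutant cold libraries, and at most 0.419 CPM in the other 9 libraries. Col4a6, a chain of specialised basement membranes, had 0.130, 0.0724 and 3.68 CPM in mutant cold libraries, against 0.413, 0.165 and 0.229 CPM in controls. Library 3 held 79.3 CPM of Krt8, 66.4 of Krt18, 54.6 of Krt19 and 18.9 of Epcam, each higher than in all other libraries, and the part of these epithelial genes in its collagen values was not tested.

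The main type IV chains were higher in all 3 mutant cold libraries. Col4a1 had 1005, 815 and 1394 CPM in mutant cold libraries, against 688, 714 and 768 CPM in control cold libraries. Col4a2 had 738, 647 and 1048 CPM in mutant cold libraries, against 530.2, 589 and 595 CPM in control cold libraries. The groups did not overlap for either chain, with differences of 0.57 ± 0.21 and 0.51 ± 0.19, and neither passed (adjusted p = 0.231 and 0.238). Without library 3 the differences were 0.33 and 0.28 (adjusted p = 0.51 and 0.523). Pi16, a peptidase inhibitor that marks a progenitor-like fibroblast, was lower without overlap, with 27.4, 23.2 and 31.6 CPM in mutant cold libraries, against 33.7, 45.3 and 35.3 CPM in control cold libraries (-0.47 ± 0.15, adjusted p = 0.169, and -0.59 ± 0.16 without library 3, adjusted p = 0.135). Col27a1 was also lower without overlap, with 97.5, 85.9 and 80.7 CPM in mutant cold libraries, against 146, 137 and 142 CPM in control cold libraries (-0.68 ± 0.27, adjusted p = 0.252, and -0.63 ± 0.32 without library 3, adjusted p = 0.472).

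The third comparison asked what cold did in control tissue. Col27a1 rose, and Col12a1, Col23a1 and Timp3 fell. These were 4 of 58 genes, 6.9%, against 6.62% of all genes tested (4.31% higher, 2.31% lower), so the share called was near the background. The direction was less even: 12 genes were positive and 46 negative, with a median log2 fold change of -0.45, beside -0.01 over all genes tested.

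Col27a1, a fibrillar collagen chain of cartilage and developing tissues, had 146, 137 and 142 CPM in control cold libraries, against 72.8, 52.5 and 62.6 CPM in control RT libraries. The groups did not overlap, and the log2 fold change was 1.18 ± 0.27 (adjusted p = 0.0284). Col23a1, a transmembrane collagen, had 3.34, 2.11 and 3.20 CPM in control cold libraries, against 7.89, 11.4 and 7.07 CPM in control RT libraries (-1.61 ± 0.34, adjusted p = 0.0178). Timp3, a metalloproteinase inhibitor bound to the matrix, had 133, 132 and 187 CPM in control cold libraries, against 319.6, 292 and 308 CPM in control RT libraries (-1.03 ± 0.22, adjusted p = 0.0208). Col12a1, which links type I fibrils, had 11.0, 9.48 and 7.96 CPM in control cold libraries, against 21.8, 26.7 and 19.6 CPM in control RT libraries (-1.26 ± 0.34, adjusted p = 0.0467). All 4 were without overlap between groups, but they were chosen by the test on the same values, so this adds no support.

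These calls depended on single libraries. Their number was 1 without control RT library 2, control RT library 3, control cold library 1 or control cold library 3, and 0 without control cold library 2. Col12a1 lost its call without any of 10 single libraries (adjusted p 0.0567 to 0.152), all except mutant cold libraries 2 and 3. Without mutant cold library 3, 9 of 60 genes were called, against a background of 11.6% (7.27% higher, 4.31% lower). The added genes were Col6a3, Col5a1, Col6a6, Col4a5 and Dcn, all lower in the cold. Col5a1 had 62.0, 46.2 and 37.9 CPM in control cold libraries, against 121, 68.7 and 73.2 CPM in control RT libraries (-0.85 ± 0.23, adjusted p = 0.0364). Dcn had 138, 92.8 and 103 CPM in control cold libraries, against 182, 172 and 163 CPM in control RT libraries (-0.63 ± 0.16, adjusted p = 0.0316).

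Of the type I and III chains, Col3a1 was lower in the cold without overlap in the control values given above, by 0.94 ± 0.57 on the log2 scale, and did not pass (adjusted p = 0.354). Gsn had 772, 1104 and 866 CPM in control cold libraries, against 1496, 1106 and 1261 CPM in control RT libraries (-0.49 ± 0.22, adjusted p = 0.19). Dpt had 62.1, 71.1 and 47.5 CPM in control cold libraries, against 125, 86.7 and 82.4 CPM in control RT libraries (-0.70 ± 0.23, adjusted p = 0.084). Sparc varied little, with 1369, 1314 and 1457 CPM in control cold libraries, against 1473, 1023 and 1189 CPM in control RT libraries.

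**Figure D3:**
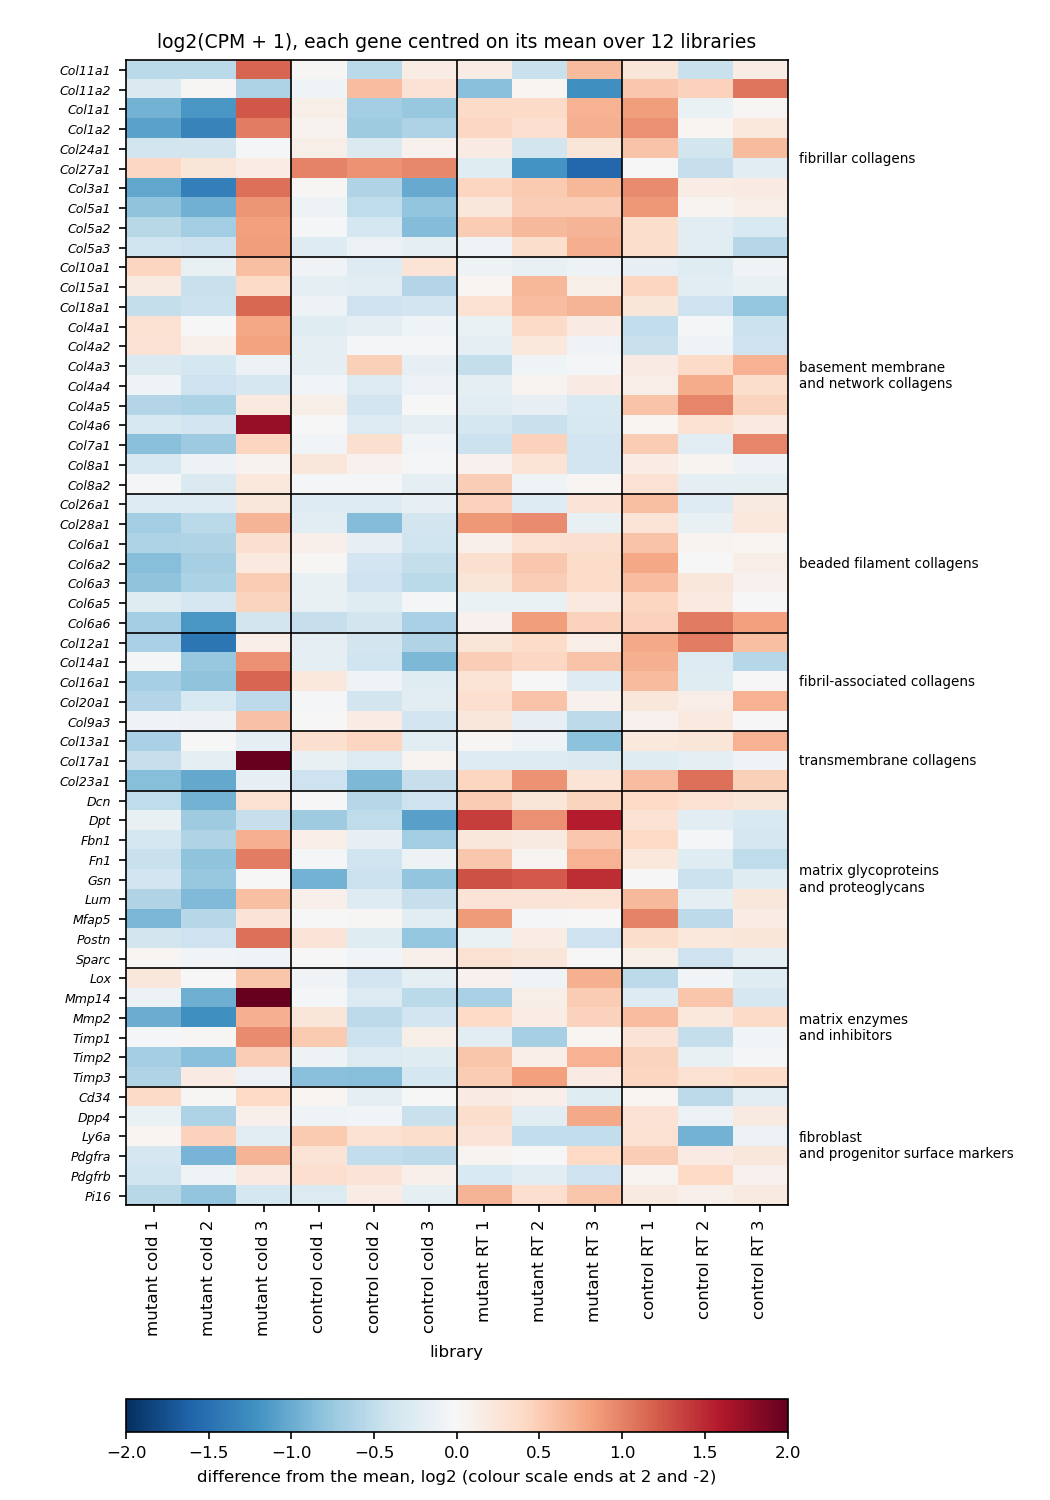
Heat map of the 58 matrix genes tested, in rows grouped by role, over the 12 libraries in columns, with colour giving log2(CPM + 1) minus the mean of that gene over all libraries. Mutant cold library 3 is above the mean for most fibrillar collagens and for Mmp2, Mmp14 and Timp2, where mutant cold libraries 1 and 2 are below it. The other matrix enzymes and inhibitors, Lox, Timp1 and Timp3, do not show this. Gsn and Dpt are highest in the 3 mutant RT libraries.

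The fourth comparison asked what cold did in mutant tissue. Dpt, Gsn, Pi16, Col20a1, Col23a1 and Col6a6 fell, and Col27a1 rose. These were 7 of 58 genes, 12.1%, against 17.4% of all genes tested (10.0% higher, 7.42% lower). The median log2 fold change was -0.29, beside -0.01 over all genes tested.

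Gsn had 1139.8, 878 and 1495 CPM in mutant cold libraries, against 3593, 3504 and 4144 CPM in mutant RT libraries. The log2 fold change was -1.68 ± 0.22 (adjusted p = 0.000533), and every cold library was below every RT library. Dpt had 91.2, 61.8 and 74.0 CPM in mutant cold libraries, against 265, 193 and 303 CPM in mutant RT libraries (-1.75 ± 0.23, adjusted p = 0.000552). Pi16 had 27.4, 23.2 and 31.6 CPM in mutant cold libraries, against 65.8, 52.0 and 60.4 CPM in mutant RT libraries (-1.12 ± 0.15, adjusted p = 0.000651). These 3 calls held under every alternative that was run, including without mutant cold library 3, where the fold changes were -1.89, -1.73 and -1.23. Adipocyte marker genes summed to 20980, 21750 and 15390 CPM in mutant cold libraries, against 26330, 20390 and 22250 CPM in mutant RT libraries.

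Col27a1 had 97.5, 85.9 and 80.7 CPM in mutant cold libraries, against 61.0, 31.2 and 23.7 CPM in mutant RT libraries (1.19 ± 0.27, adjusted p = 0.0121). It was higher in the cold in mutants as in controls, although the mutant call was lost without mutant RT library 2 (adjusted p = 0.0594) and with only the groups compared in the fit (adjusted p = 0.0639). With mutant cold library 3 left out it was 1.24 ± 0.31 (adjusted p = 0.017). Col23a1 had 2.21, 1.85 and 4.17 CPM in mutant cold libraries, against 6.82, 9.73 and 5.98 CPM in mutant RT libraries (-1.45 ± 0.34, adjusted p = 0.0122), a call lost without mutant cold library 1 (adjusted p = 0.0531). Without library 3 it was -1.88 ± 0.32 (adjusted p = 0.00161). Col20a1, a fibril-associated collagen, had 3.26, 4.20 and 3.47 CPM in mutant cold libraries, against 7.05, 8.50 and 5.80 CPM in mutant RT libraries (-0.97 ± 0.23, adjusted p = 0.0136). Its call was lost without mutant cold library 1 or mutant RT library 2 (adjusted p = 0.059 and 0.0606), and without library 3 it was -0.93 ± 0.27 (adjusted p = 0.0255). Col6a6, a chain of type VI collagen, had 0.391, 0 and 0.720 CPM in mutant cold libraries, against 1.37, 2.99 and 2.07 CPM in mutant RT libraries, a log2 fold change of -2.48 ± 0.76 (adjusted p = 0.0416), and of -3.39 ± 0.84 without library 3 (adjusted p = 0.0134). That call was lost without any of 9 single libraries (adjusted p 0.0516 to 0.122), all except mutant cold libraries 2 and 3 and control RT library 2, and with the replicate number as a block (0.0533).

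Without mutant cold library 3, 24 of 60 genes were called, 1 higher and 23 lower, which was 40% of them, against 23.4% of all 15506 genes tested in that fit (13.0% higher, 10.4% lower). The median log2 fold change was -0.88, beside -0.03 over all genes. The 24 comprised 6 of 10 fibrillar collagens, 5 of 7 beaded filament collagens and 6 of 9 matrix glycoproteins and proteoglycans, but 1 of 12 basement membrane and network collagens and 1 of 6 surface markers. All 7 genes called with the library were among them. With library 3 left out, 2 mutant cold libraries remained.

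**Figure D4:**
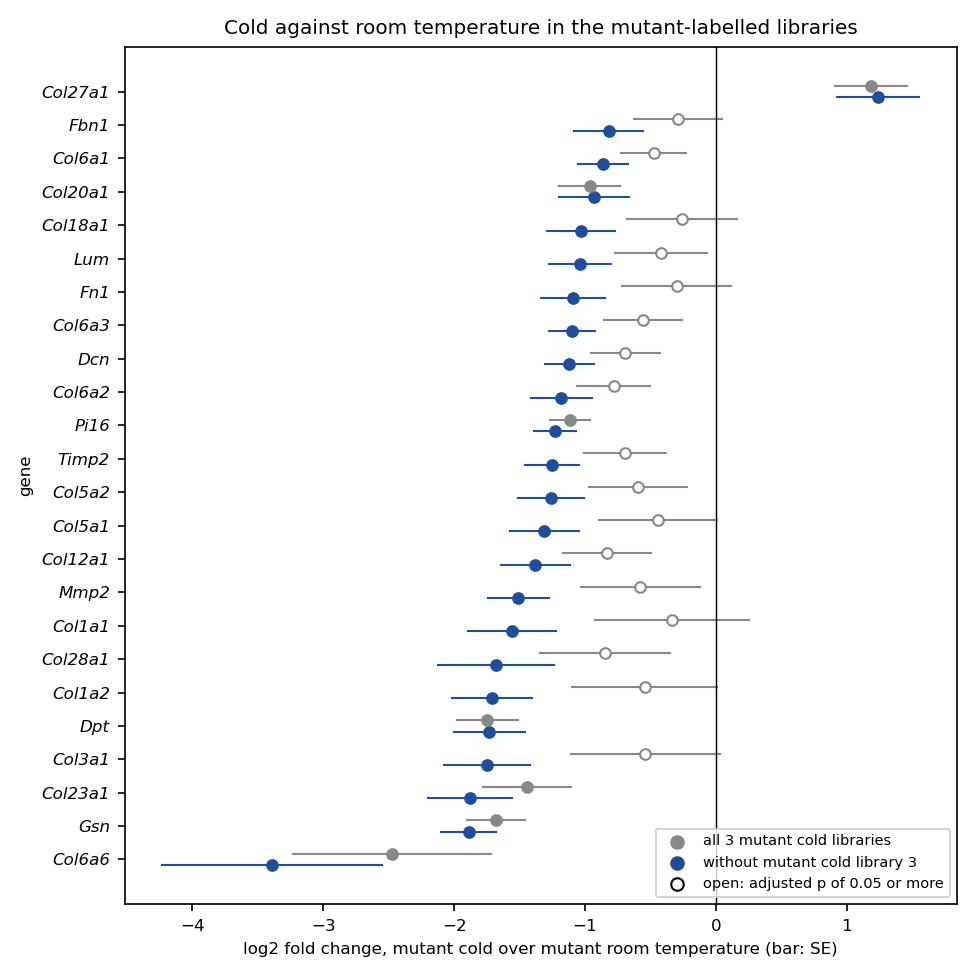
Log2 fold change of mutant cold over mutant RT libraries (horizontal axis, points with SE bars) for the 24 genes called without mutant cold library 3, in blue, with the value from all 3 mutant cold libraries in grey. Filled points passed an adjusted p of 0.05 and open points did not; Col27a1 alone is positive, and Dpt, Col20a1, Col27a1 and Pi16 differ least between the 2 fits.

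Among the 24 genes called without library 3, the fold changes of Col1a1, Col3a1 and Col1a2 moved most when it was left out. Col3a1 had 234 and 186 CPM in mutant cold libraries 1 and 2, against 649, 692 and 767 CPM in mutant RT libraries, a log2 fold change of -1.75 ± 0.33 (adjusted p = 0.00317). With library 3, at 1032 CPM, the fold change was -0.54 ± 0.57 (adjusted p = 0.573). Col1a1 changed by -1.56 ± 0.34 (adjusted p = 0.00773) and Col1a2 by -1.71 ± 0.30 (adjusted p = 0.00233) without library 3. Genes that were not called moved further, among them Mmp14 at -0.58 without the library and 0.81 with it, and Col17a1 at -0.40 without it and 3.79 with it. The fibrillar Col27a1 hardly moved. Col5a1 had 37.6, 33.7 and 123 CPM in mutant cold libraries, against 77.9, 93.7 and 93.7 CPM in mutant RT libraries. Col5a2 had 32.9, 29.8 and 86.4 CPM against 69.8, 77.1 and 78.4 CPM, so that in each type V chain libraries 1 and 2 lay below every RT library and library 3 did not. The third type V chain, Col5a3, had 102, 99.4 and 241 CPM in mutant cold libraries, against 126, 171 and 223 CPM in mutant RT libraries, and was called in neither fit.

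Type VI chains followed. Col6a1 had 74.4, 75.5 and 144 CPM in mutant cold libraries, against 123, 142 and 143 CPM in mutant RT libraries. Col6a2 had 56.6, 64.9 and 119 CPM against 129, 149 and 134 CPM, and Col6a3, the long chain that yields endotrophin, had 52.4, 59.0 and 132 CPM against 109, 131 and 119 CPM. Without library 3 all 3 fell, by 0.86 ± 0.19, 1.18 ± 0.23 and 1.10 ± 0.18 on the log2 scale (adjusted p = 0.00709, 0.00396 and 0.00121). In controls the same chains had 123, 103 and 86.7 CPM (Col6a1), 105, 78.3 and 73.6 CPM (Col6a2) and 83.3, 68.9 and 62.9 CPM (Col6a3) in the cold. At RT controls had 171, 119.8 and 118 CPM, 178, 103 and 113 CPM, and 142, 108 and 98.3 CPM of them. Col6a5 was at most 0.720 CPM and Col6a4 at most 0.309 CPM in any library.

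Muscle genes, which summed to 6.16 and 279.8 CPM in mutant cold libraries 1 and 2, varied from 7.89 to 20050 CPM among the mutant RT libraries. In mutant RT libraries 1, 2 and 3 these sums were 1114, 7.89 and 20050 CPM. The same libraries held 649, 692 and 767 CPM of Col3a1 and 209, 210.3 and 260.1 CPM of Col1a1. The part of muscle in these collagen values was not tested. Among the other genes that fell without library 3, Mmp2 changed by -1.51 ± 0.23 (adjusted p = 0.000933), Dcn by -1.12 ± 0.19 (adjusted p = 0.00148) and Timp2, an inhibitor that also helps activate Mmp2, by -1.25 ± 0.21 (adjusted p = 0.00128). Fn1 (fibronectin) changed by -1.09 ± 0.24 (adjusted p = 0.00827), and Lum (lumican, a proteoglycan of collagen fibrils) by -1.04 ± 0.24 (adjusted p = 0.0086). Fbn1 (fibrillin-1, the core of microfibrils) changed by -0.82 ± 0.26 (adjusted p = 0.0438). Postn (periostin), Sparc, Mfap5, Lox, Mmp14, Timp1 and Timp3 were not called in either fit, Timp3 at -0.67 ± 0.22 with library 3 and -0.70 ± 0.25 without it (adjusted p = 0.0554 and 0.0665). Nor were the progenitor and fibroblast surface genes Pdgfra, Pdgfrb, Ly6a, Cd34 and Dpp4.

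Col4a1 and Col4a2, the main type IV chains, were not called in either fit. Col4a1 had 1005, 815 and 1394 CPM in mutant cold libraries, against 743, 1067 and 915 CPM in mutant RT libraries, and differed by 0.24 ± 0.21 with library 3 and by 0.00 ± 0.19 without it (adjusted p = 0.494 and 0.996). Col4a2 had 738, 647 and 1048 CPM in mutant cold libraries, against 534, 695 and 572 CPM in mutant RT libraries, and differed by 0.43 ± 0.19 with library 3 (adjusted p = 0.152) and 0.21 ± 0.16 without it. Sparc had 1405, 1314 and 1282 CPM in mutant cold libraries, against 1675, 1607 and 1361 CPM in mutant RT libraries (-0.21 ± 0.16, adjusted p = 0.406, and -0.19 ± 0.17 without library 3, adjusted p = 0.451). The minor type IV chains were at low levels and were not called either. Col4a3 had 1.04, 0.941 and 1.29 CPM in mutant cold libraries, against 0.789, 1.33 and 1.44 CPM in mutant RT libraries (-0.12 with library 3, -0.26 without it). Col4a4 had 1.27, 0.796 and 0.900 CPM against 1.12, 1.48 and 1.69 CPM (-0.53 and -0.46), and Col4a5 had 2.21, 2.10 and 4.50 CPM against 3.10, 3.31 and 2.88 CPM (-0.07 and -0.52), in the same order of groups and fits.

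The balance of the 2 collagen classes was given by the ratio of summed CPM of 12 network collagens to that of 11 fibrillar collagens within a library. It was 2.72, 2.62 and 1.11 in mutant cold libraries, against 1.07, 1.58 and 1.82 in control cold libraries. At RT it was 0.963, 1.28 and 0.919 in mutant libraries, against 0.587, 1.26 and 0.963 in controls. The highest ratios were those of mutant cold libraries 1 and 2, and mutant cold library 3 lay within the range of the RT libraries. No test was made of this ratio.

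The fifth comparison asked whether the cold response differed between genotypes, as the mutant cold-to-RT difference minus that of controls. None of the 58 genes was called by edgeR's quasi-likelihood test, against 0.478% of all genes tested. By edgeR, 4 of the 58 genes had an unadjusted p under 0.05, beside 1869 of all 15265. DESeq2, which here called more of all genes than edgeR, called 2 of the matrix genes, Gsn and Pi16. The values were -0.86 ± 0.21 for Pi16 (adjusted p = 0.121), -1.18 ± 0.31 for Gsn (adjusted p = 0.135) and -1.04 ± 0.32 for Dpt (adjusted p = 0.211, and -1.03 ± 0.35 without library 3, adjusted p = 0.202). Without mutant cold library 3, Gsn was called at -1.40 ± 0.27 (adjusted p = 0.0462), against a background of 0.587%, and Pi16 was at -0.98 ± 0.21 (adjusted p = 0.063). The median over the genes tested was 0.15 with that library and -0.44 without it. The larger cold difference of Gsn in mutants came with its higher RT level in mutants, since both cold groups lay between 772 and 1495 CPM.

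The ratio of chains of the same or related trimers was taken per kilobase of exon. Col1a1 over Col1a2 ran from 0.59 to 0.789 across the 12 libraries, a 1.34-fold range. Col4a1 over Col4a2 ran from 1.18 to 1.55, Col6a1 over Col6a2 from 1.39 to 1.93 and Col6a3 over Col6a1 from 0.253 to 0.348. Col1a1 over Col1a2 was 0.738, 0.764 and 0.789 in mutant cold libraries, against 0.703, 0.688 and 0.609 in control cold libraries, and 0.658, 0.702 and 0.664 in mutant RT libraries, against 0.637, 0.601 and 0.59 in control RT libraries. The 3 mutant cold libraries, library 3 included, lay above the other 9, and mutant RT libraries lay above control RT libraries. Col3a1, which forms its own trimers, ran from 2.68 to 3.87 times Col1a1 per kilobase, a 1.44-fold range.

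The ratio with the widest range, 1.75-fold, was Col5a1 over Col5a2, chains of the same trimer. It was 0.871, 0.948 and 0.932 in mutant RT libraries, against 1.52, 1.29 and 1.46 in control RT libraries, and 0.892, 0.883 and 1.11 in mutant cold libraries, against 1.02, 0.952 and 1.12 in control cold libraries. The 3 control RT libraries lay above the other 9. No test was made of these ratios.

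**Figure D5:**
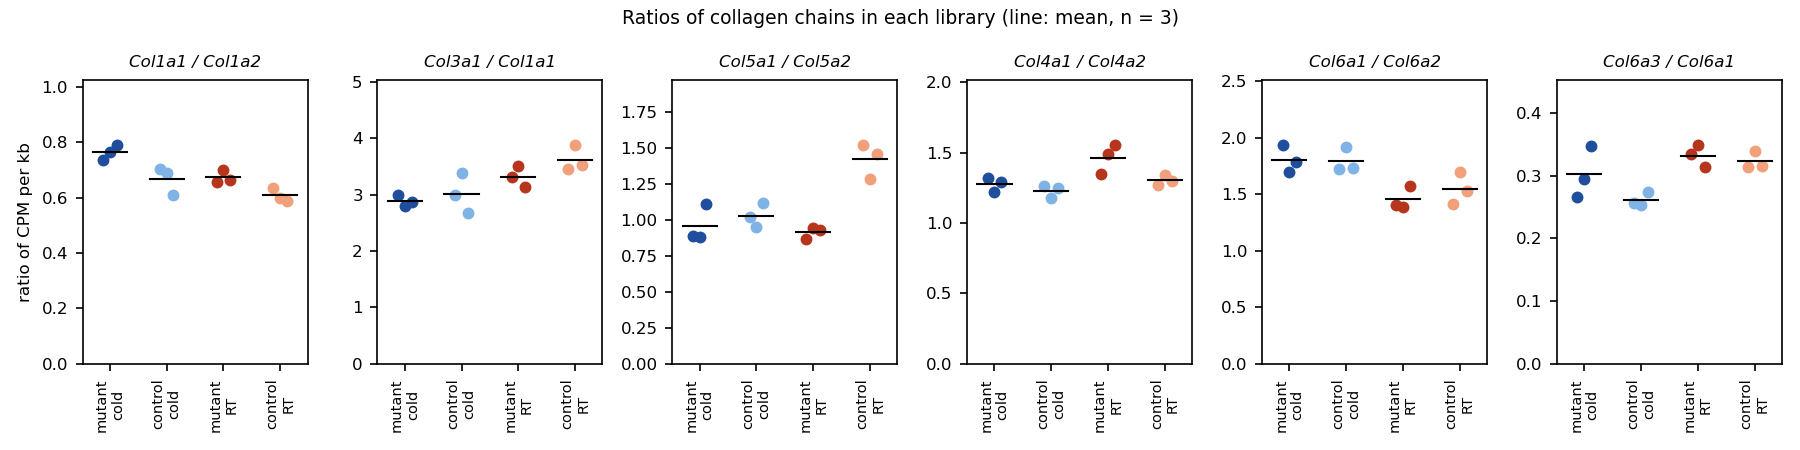
Ratio of CPM per kilobase of exon between chains of the same or related trimers (vertical axes from 0) in each of the 12 libraries, with groups along the horizontal axis and the group mean as a line. Col5a1 over Col5a2 is 1.29 to 1.52 in the 3 control RT libraries and 0.871 to 1.12 in the other 9, and Col1a1 over Col1a2 is 0.738 to 0.789 in the 3 mutant cold libraries and 0.59 to 0.703 in the other 9.

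Genes that make, link, anchor and degrade collagen were followed as lists beside the members. Their counts are to be read against the share of all genes called in each comparison. In mutant against control tissue at RT, where 6.24% of all genes were called, 1 of 22 collagen synthesis genes was lower, P3h4, a partner of lysyl hydroxylase (-0.97 ± 0.21, adjusted p = 0.0166). Of 14 laminins and basement membrane proteins, 2 were higher, Lama4 of the laminins around adipocytes and vessels (0.97 ± 0.23, adjusted p = 0.03) and Nid1, which joins laminin to type IV collagen (0.86 ± 0.22, adjusted p = 0.0419). Agrn (agrin) was lower (-0.71 ± 0.15, adjusted p = 0.0149). Mmp19 was higher among 18 proteases and inhibitors (0.69 ± 0.14, adjusted p = 0.0139), and the progenitor marker Dlk1 was lower among 18 other fibroblast markers (-2.39 ± 0.64, adjusted p = 0.0464). None of 5 crosslinking, 14 elastic fibre, 19 proteoglycan and matricellular, 9 collagen receptor or 15 TGF-beta and PDGF genes was called.

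In the cold, Lamb3, the laminin beta3 chain of epithelial anchoring filaments, was the only gene of these lists called between genotypes. It had 42.3, 29.1 and 40.7 CPM in mutant cold libraries, against 4.41, 3.16 and 3.70 CPM in control cold libraries, and 3.75 to 5.92 CPM in mutant RT libraries, against 3.54 to 8.57 CPM in control RT libraries. All 3 mutant cold libraries were high. Their epithelial marker sums were 13.6, 9.70 and 279 CPM, and the part of epithelial cells in the Lamb3 values was not tested. The difference was 3.31 ± 0.33 (adjusted p = 0.00124), and 3.25 ± 0.35 without library 3 (adjusted p = 0.00296). Its interaction was also called, at 3.47 ± 0.44 (adjusted p = 0.00756).

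In control tissue, where 6.62% of all genes were called (2.31% lower), cold lowered 2 of 22 collagen synthesis genes, 9.09% of the list, Plod2, a lysyl hydroxylase of crosslink sites (-1.35 ± 0.29, adjusted p = 0.0207), and P3h4 (-1.03 ± 0.21, adjusted p = 0.0142). Loxl1, a lysyl oxidase of elastic fibres, was the 1 crosslinking gene of 5 that rose (1.00 ± 0.26, adjusted p = 0.0419). Ltbp4, which binds latent TGF-beta, rose among 14 elastic fibre genes (0.71 ± 0.19, adjusted p = 0.0483), and Lamb1 fell among 14 basement membrane genes (-0.89 ± 0.23, adjusted p = 0.0442). Timp4 fell among 18 proteases and inhibitors (-1.40 ± 0.18, adjusted p = 0.00201). The collagen receptor gene Ddr2 (-0.78 ± 0.18, adjusted p = 0.0284), Smad3 (-0.86 ± 0.22, adjusted p = 0.0386) and the fibroblast gene Clec3b (-0.77 ± 0.21, adjusted p = 0.0488) fell as well. None of 19 proteoglycan and matricellular genes was called. Each list had 0 to 2 genes called.

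In mutant tissue, where 17.4% of all genes were called, 5 of 22 collagen synthesis genes were called, a share of 22.7%, near the background. Plod2 (-0.90 ± 0.29, adjusted p = 0.0494, and 0.0537 without library 3) and P4hb, a subunit of prolyl hydroxylase (-0.83 ± 0.22, adjusted p = 0.0218), were the largest of 4 that fell, and Adamts3, a procollagen N-proteinase, rose (1.37 ± 0.34, adjusted p = 0.0161). Loxl1 rose as in controls, at 105.6, 110.4 and 113 CPM in mutant cold libraries, against 33.8, 26.9 and 68.1 CPM in mutant RT libraries (1.35 ± 0.26, adjusted p = 0.00468). Of 14 basement membrane genes, Lamb3, Lamc3 and Agrn rose and Lamb1 and Lama4 fell, with Lamb3 at 2.92 ± 0.32 and Lamb1 at -1.13 ± 0.24 (adjusted p = 0.000203 and 0.00684). Efemp1 and Ltbp3 fell among 14 elastic fibre genes (-1.24 ± 0.33 and -0.46 ± 0.14, adjusted p = 0.0227 and 0.0378), 14.3% of that list, and Ltbp3 lost its call without library 3 (adjusted p = 0.0652). Ogn (osteoglycin) was the 1 of 19 proteoglycan and matricellular genes that fell (-1.09 ± 0.32, adjusted p = 0.0388). Mmp13, a collagenase, was called higher among 18 proteases, at a mean of 0.433 CPM in mutant cold libraries, against 0.0379 CPM in mutant RT libraries, a mean under the level of 3 counts (adjusted p = 0.0333).

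Of 15 TGF-beta and PDGF genes 4 fell in cold mutants, led by Pdgfc (-1.09 ± 0.30, adjusted p = 0.0252) and Tgfbi (-0.91 ± 0.25, adjusted p = 0.0248). Of 18 other fibroblast markers Clec3b (-1.07 ± 0.21, adjusted p = 0.0048) and Cd55 (-1.01 ± 0.32, adjusted p = 0.0486) fell. None of 9 collagen receptor genes was called. The other genes named here for cold in mutants kept their direction and call without library 3. Their fold changes were then -1.16 for P4hb, 1.35 for Adamts3, 1.33 for Loxl1, 2.85 for Lamb3, 0.85 for Lamc3, 0.56 for Agrn, -1.39 for Lamb1 and -1.18 for Lama4. They were -1.80 for Efemp1, -1.51 for Ogn, 3.77 for Mmp13, -1.36 for Pdgfc, -1.14 for Tgfbi, -1.35 for Clec3b and -1.36 for Cd55. In that fit, where 23.4% of all genes were called, the counts were 8 of 22 synthesis genes, 3 of 5 crosslinking genes, 3 of 14 elastic fibre genes, 6 of 19 proteoglycan and matricellular genes, 9 of 14 basement membrane genes, 2 of 18 proteases and inhibitors, 2 of 9 collagen receptor genes, 6 of 15 TGF-beta and PDGF genes and 5 of 18 other fibroblast markers. The elastic fibre, protease, receptor and other fibroblast marker lists were thus near or below the share of all genes. The procollagen N-proteinase Adamts2 was then the largest of the synthesis genes (-1.78 ± 0.25, adjusted p = 0.000522).

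Other cell types were read from the same libraries by summed CPM. Endothelial genes summed to 1293 to 1319 in mutant cold libraries, against 1244 to 1366 in control cold libraries, and to 847.7 to 1073 in mutant RT libraries, against 823.6 to 1195 in control RT libraries. Macrophage genes summed to 142.1 to 179.8 in mutant cold libraries, against 167.6 to 431.6 in control cold libraries, and to 174.8 to 275.7 in mutant RT libraries, against 137.2 to 317.8 in control RT libraries. Mural and smooth muscle genes summed to 369.9, 388.9 and 803.6 in mutant cold libraries, with the highest value again in library 3, against 475.4 to 775.8 in control cold libraries. At RT they summed to 601.8 to 888.4 in mutant libraries, against 591.2 to 949.3 in control libraries. Schwann cell genes summed to 175.7 to 290 in mutant cold libraries, against 209 to 423.5 in control cold libraries, and to 226.8 to 574.2 in mutant RT libraries, against 174.2 to 451.3 in control RT libraries. The part of these cell types in the matrix values was not tested.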

How the data were processed

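The deposited values were unnormalised counts of reads per gene. The submitters' processing notes name STAR, featureCounts and mm9. Versions, annotation, strand and multi-mapping rules are not stated there. Overlapping genes, such as Col4a1 and Col4a2 at their starts (22 bases in GENCODE M21), therefore cannot be separated there. RNA was isolated in TRIzol and sequenced from NEBNext Ultra libraries, per the labels' protocols. Replicate libraries differed beyond sampling noise (chi-square per degree of freedom 38.6 to 236).

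Counts were tested with edgeR 4.0.16 (R 4.3.3): filterByExpr (minimum count 10, minimum total 15), TMM, and the robust quasi-likelihood F-test on all 12 libraries with 1 coefficient per group. P-values are two-sided and Benjamini-Hochberg adjusted over all genes tested, and a gene is called below 0.05. SE is the log2 fold change over the square root of F. The script was tested on simulated data. CPM use TMM-scaled totals over the whole table, and levels per kilobase use exon lengths of protein-coding transcripts (GENCODE M21, GRCm38).

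The genes and lists were chosen with earlier results of these data known. Full values are given for genes called in any comparison, the 5 most abundant, and the chains of types I, III, IV, V and VI; from each pathway list up to 2 called genes per direction are named. Lamb3 levels, Adamts2 and the epithelial genes of mutant cold library 3 were chosen after their values were seen.

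Whether equal replicate numbers pair libraries could not be settled: with a prior count of 1 in log2 CPM, RT pairs correlated at 0.165, 0.719 and 0.488, but with CPM plus 1 the first correlated at 0.0577. With the prior count, cold pairs correlated at -0.0306, 0.206 and 0.491. Cold and RT libraries correlated at 0.142, 0.647 and 0.456 in controls and at 0.0272, 0.151 and 0.577 in mutants. Replicates 2 and 3 were thus positive in every pairing. The muscle sums also went partly with the replicate number, and their part in these correlations was not tested. As pairing was not settled, the replicate block is an alternative only. Other alternatives were RLE scaling, DESeq2 1.42.0, other filters, only the groups compared, each library left out, and the 3 libraries with over 1% muscle counts left out.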

Additional observations from a re-analysis of the deposited data

Results flagged for a closer look

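Pi16 lay on opposite sides of the controls at the 2 temperatures, although neither genotype difference passed (-0.47 in the cold and 0.38 at RT, adjusted p = 0.169 for both by edgeR). In the cold every mutant library was below every control library (27.4, 23.2 and 31.6 CPM against 33.7, 45.3 and 35.3 CPM), and at RT every mutant library was above every control library (65.8, 52.0 and 60.4 CPM against 46.3, 43.7 and 46.5 CPM). The test of the difference itself gave -0.86 ± 0.21 on the log2 scale (SE, unadjusted p = 0.0017) and an adjusted p of 0.121 by edgeR's quasi-likelihood test, which did not pass either.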

How the results depend on the processing

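The number of the matrix genes called was compared across alternatives. With DESeq2 it was 5 for mutant against control at RT, 8 for cold in controls, 11 for cold in mutants and 2 for the interaction. DESeq2 also called more of all genes at RT, for cold in controls and for the interaction, as given below. Its total over all genes for cold in mutants is not given here, so the 11 has no background beside it. With only the groups compared, the number of the matrix genes called was 7 for cold in controls. Without the 3 muscle-rich libraries, which leaves 1 control RT library assumed to vary like the other groups, it was 0 at RT between genotypes and 0 for cold in controls. With single libraries left out it ran from 2 to 7 for mutant against control at RT, from 0 to 0 in the cold, from 0 to 9 for cold in controls, from 4 to 24 for cold in mutants and from 0 to 1 for the interaction. The highest count came without mutant cold library 3, except in the cold genotype comparison, and for cold in mutants the lowest came without mutant RT library 2. With the replicate number as a block, the counts in the same order were 3, 0, 3, 6 and 0, and Col12a1 (adjusted p = 0.0673) and Col6a6 (0.0533) lost their calls. The median fold change of these genes ran from -0.0721 to 0.223, from -0.44 to 0.483, from -0.584 to -0.334, from -0.876 to -0.0664 and from -0.436 to 0.32 with single libraries left out, and it moved by more than the 0.39 SD between replicates only without mutant cold library 3. That SD was taken over all 12 libraries, mutant cold library 3 included, so smaller shifts cannot be judged apart from that library. Among single genes called, 210 of the alternative values kept direction and call, 56 kept direction only, and 0 turned round. Over all genes, the counts called were 952, 171, 1010, 2663 and 73 in the same order, against 1651, 717 and 1951 by DESeq2 for the genotype comparisons and cold in controls and 436 for the interaction. They were 552, 102 and 1633 with only the groups compared for the genotype comparisons and cold in mutants, 298 and 338 without the muscle-rich libraries at RT between genotypes and for cold in controls, and 34 with the replicate block for the interaction. With single libraries left out they ran from 395 to 1512, 28 to 203, 313 to 1795, 1466 to 3630 and 13 to 204. Genes near the level of 3 counts, such as Col6a5 and Col17a1, are limited by depth. The cause of these shifts was not tested.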
